A study of Mus musculus with 12 samples.

Results

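The clustered, replication-dependent histone genes were examined in natural killer (NK) cells, which are cytotoxic lymphocytes, expanded with IL-2 from mouse spleen. They were taken as every row of the deposited count table whose symbol begins with Hist1h, Hist2h, Hist3h or Hist4h and whose counts summed to at least 10 over the 12 libraries. Such a symbol was carried by 70 of the 50674 genes, and 65 of these reached the minimum. Those 65 comprised 6 H1, 17 H2A, 18 H2B, 11 H3 and 13 H4 genes, and 64 passed the filter on low counts that preceded the tests. Hist1h1t, a testis-specific H1 gene with 40 counts in all, was the member left untested. The 5 rows below the minimum were Hist1h2ba with 9 counts, Hist1h2aa with 7, Hist1h2al with 1, and Hist1h2aj and Hist2h3c1 with 0 counts each.

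Cells were wild-type or Mirc11-/-, which lack a microRNA cluster, and all 12 samples were labelled C57BL/6. Each genotype was left untreated (called unstimulated here) or stimulated for 6 h through NKG2D, an activating receptor of NK cells, with 3 biological replicates in each of the 4 groups. Neither the ages of the mice, nor how the cluster was deleted, nor whether animals were pooled is given in the sources used here. RNA was extracted with Trizol, labelled as polyA RNA and made into libraries with Illumina TruSeq RNA reagents.

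Histones package DNA into nucleosomes, with H2A, H2B, H3 and H4 forming the core particle and H1 binding the linker DNA. During S phase, cells make histones from clustered genes whose mRNAs normally end in a stem-loop bound by the protein Slbp rather than in a poly(A) tail, and Npat is the transcriptional coactivator dedicated to these genes. Some clustered genes also make polyadenylated transcripts, for example in cells that stop dividing. A library made by poly(A) selection therefore samples only part of the histone mRNA, and the part it samples was not measured here.

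The deposited table held 15.1 to 25.3 megacounts of estimated reads per library. Mir27a, a microRNA gene of the deleted cluster, had 8 counts over the unstimulated and 5 over the stimulated wild-type libraries and 0 in all 6 Mirc11-/- libraries. The 8 listed markers of NK cells summed to between 3466 and 11856 CPM (counts scaled to a common library total), lowest in stimulated Mirc11-/- replicate 1. With stimulation 6 of them fell and 2 rose in wild-type cells, and 6 fell and 1 rose in Mirc11-/- cells. Marker lists of other cells summed to 37.1 to 107.9 CPM for T cells (6 genes), 1.6 to 8.3 for B cells (5 genes), 2.33 to 9.97 for macrophages and monocytes (6 genes), 2.3 to 7.4 for neutrophils and mast cells (6 genes) and 76.5 to 206.9 for dendritic cells (6 genes, of which 4 were tested). With stimulation, 1 T-cell, 1 B-cell and 1 dendritic-cell gene rose in wild-type cells, and in Mirc11-/- cells 1 of 6 tested T-cell, 2 of 2 B-cell, 2 of 4 dendritic-cell and 1 of 2 macrophage genes did. As background for these marker counts, 15.7% of all tested genes fell and 16.1% rose in wild-type cells. In Mirc11-/- cells 22.1% fell and 23.5% rose. The 1 rising T-cell gene of 6 is near these shares. The dendritic-cell sum was higher in Mirc11-/- cells, with 159.4 to 206.9 CPM against 76.5 to 130.6 CPM in wild-type cells and no overlap of libraries. Gene by gene, 0 of the 4 tested passed between genotypes in unstimulated cells, where 1.11% of all genes did, with a median log2 change of 0.13. In stimulated cells 1 of the 4 was higher in Mirc11-/- cells, where 3.89% of all genes were, so the sum does not stand for the whole list. The part of these genes in the results was not tested. Although the RNA was labelled as polyadenylated, the noncoding RNAs Rn7s1, Rn7s2, Rn7sk, Rpph1 and Rmrp, which carry no poly(A) tail, held 8.20% to 12.1% of all counts. The clustered histone genes held 0.230% to 0.659%. One library stood apart: replicate 1 of the stimulated Mirc11-/- group had the lowest summed histone level and the highest summed level of vomeronasal receptor genes, which encode chemosensory receptors of the vomeronasal organ. Values without it are given beside the sums, the counts by genotype and the genotype comparisons.

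In the GENCODE vM21 annotation of the GRCm38 genome, 52 members lie on chromosome 13 between 21715763 and 23764406, 9 on chromosome 3 between 96219865 and 96270132, 3 on chromosome 11 between 58948920 and 58956830, and 1, Hist4h4, on chromosome 6 at 136801553 to 136804415. The identifiers of 63 members were found in that release and the other 2, Hist1h2bh and Hist1h2bm, were matched by symbol, so the authors' gene models may end elsewhere than those described here. Of the 65, 64 are annotated as protein-coding and 1, Hist3h2bb-ps, as a processed pseudogene. A gene on the opposite strand overlaps 20 members, among them all 17 H2A genes, and since no source used here gives the strand setting of the counting, reads of such partners could not be told apart.

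The stem-loop itself is shown because it is the feature that sets these mRNAs apart and because its letters split by histone type. A search of the sense strand for the histone stem-loop consensus, with any base at the paired and loop positions that vary, found it in the annotated transcripts of 45 of the 65 members and in 0.221% of all 141767 transcripts of the release. The forms found in more than 1 member, read 5′ to 3′ from GENCODE vM21, were as follows, with the capitals marking the whole stem-loop.
H1, H2A, H2B and H3, 25 members: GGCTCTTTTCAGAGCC
H1, H2B and H3, 6 members: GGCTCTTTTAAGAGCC
H4, 7 members: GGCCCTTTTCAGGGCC
H4, 2 members: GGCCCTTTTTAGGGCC
H4, 2 members: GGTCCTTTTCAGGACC
No H4 gene shared its form with a gene of another type, and the other 3 forms were each found in 1 member. The remaining 20 members have no match, which says only that these letters are not in the annotated model.

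After NKG2D stimulation the summed level of the clustered histone genes was lower in both genotypes, with the widest ratio for H1 and the narrowest for H4. Levels are CPM after scaling between libraries with TMM factors, which allow for differences in RNA composition. Over all 65 genes the sum was 4457, 4431 and 4682 CPM in unstimulated wild-type replicates 1 to 3 and 3182, 3126 and 3816 CPM in stimulated ones. It was 4237, 6296 and 6012 CPM in unstimulated Mirc11-/- replicates and 2170, 4522 and 3433 CPM in stimulated ones. The wild-type groups did not overlap, whereas the Mirc11-/- groups did, since the highest stimulated library was above the lowest unstimulated one. As means with SD (n = 3), the sums were 4523 ± 138 and 3374 ± 383 CPM in wild-type cells, 1.34-fold lower after stimulation, and 5515 ± 1116 and 3375 ± 1177 CPM in Mirc11-/- cells, 1.63-fold lower. Without stimulated Mirc11-/- replicate 1 the latter ratio was 1.39. In bulk RNA, fewer cells in S phase and less histone mRNA per cell cannot be told apart. These sums, unlike single genes, do not depend on how reads were divided between near-identical copies of one type. No test was made on them.

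**Figure D1:**
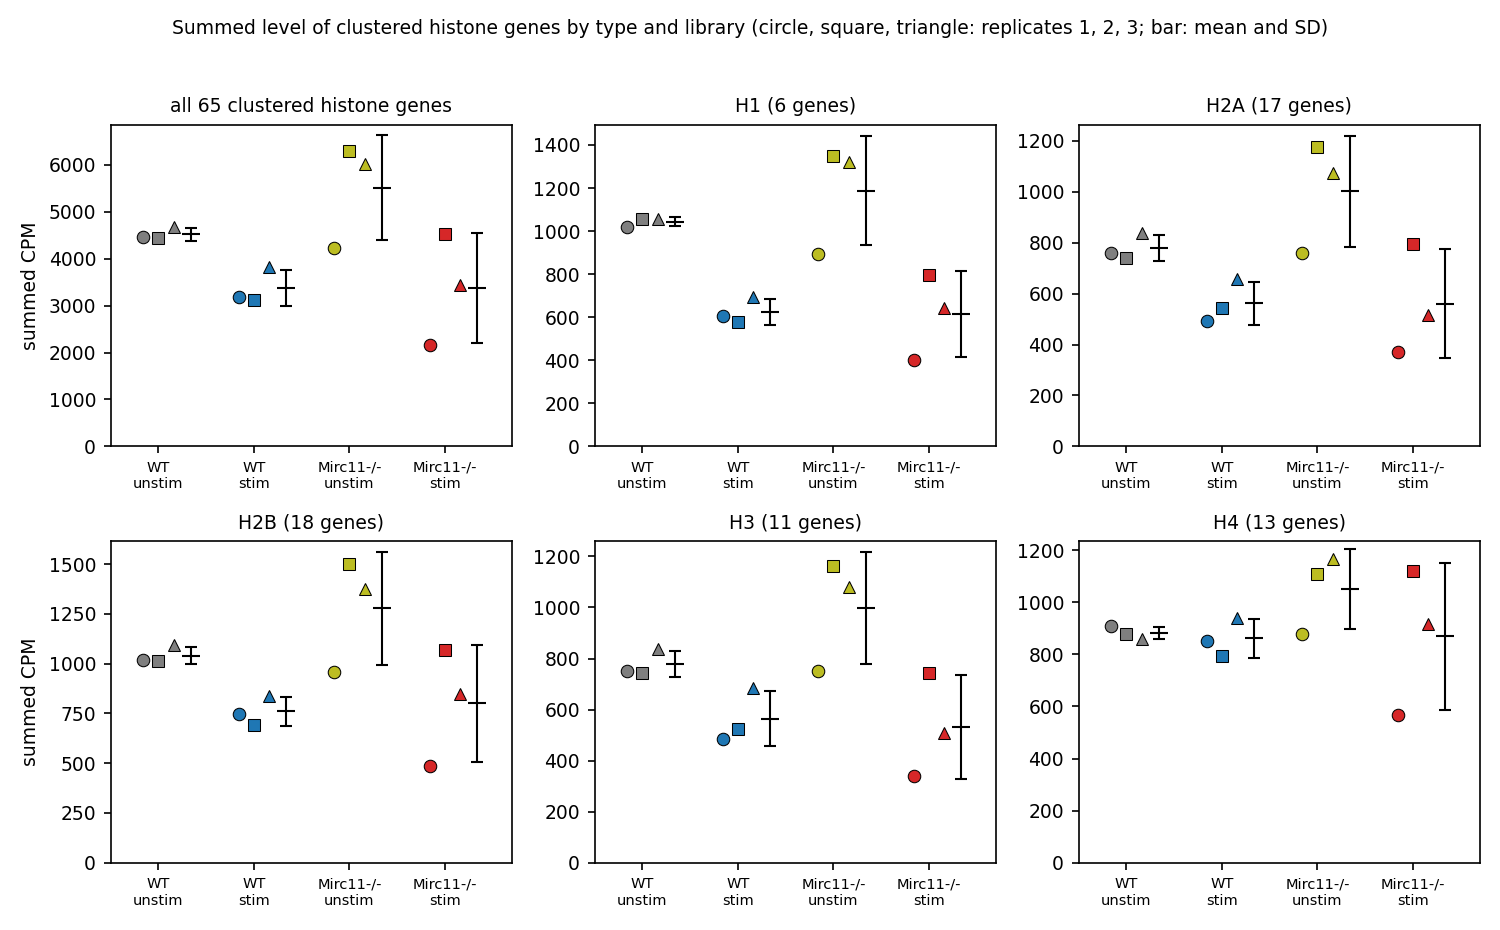
Summed CPM (vertical axes, from 0) of all 65 clustered histone genes and of each histone type in the 12 libraries, by genotype and stimulation (horizontal axes). Circles, squares and triangles are replicates 1, 2 and 3, and the bars give the mean and SD of 3 libraries; H1 was 1.67-fold lower and H4 1.02-fold lower after stimulation in wild-type cells.

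Split by type, the H1 sum was 1044 ± 20.9 CPM in unstimulated and 626 ± 60.2 CPM in stimulated wild-type cells, and 1188 ± 254 and 614 ± 198 CPM in Mirc11-/- cells. That is 1.67-fold and 1.93-fold lower after stimulation, and in both genotypes every stimulated library lay below every unstimulated one. The H3 sum was 778 ± 51.9 and 565 ± 106 CPM in wild-type cells, 1.38-fold lower, and 997 ± 219 and 532 ± 203 CPM in Mirc11-/- cells, 1.88-fold lower. The compared H3 groups did not overlap in either genotype, though in Mirc11-/- cells only by 744 against 749 CPM. For H2A the ratios were 1.39 and 1.79, and for H2B they were 1.37 and 1.60. The H4 sum was 882 ± 23.9 and 861 ± 74.8 CPM in wild-type cells, a ratio of 1.02 that is within the spread, and 1050 ± 153 and 869 ± 281 CPM in Mirc11-/- cells, a ratio of 1.21. H4 libraries of the compared groups overlapped in both genotypes. Leaving out stimulated Mirc11-/- replicate 1 gave ratios in Mirc11-/- cells of 1.65 for H1, 1.53 for H2A, 1.34 for H2B, 1.59 for H3 and 1.03 for H4, so H1 and H3 remained above H4. The plot of summed levels by type shows how much wider the Mirc11-/- groups were than the wild-type ones.

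Gene by gene, the number of members passing in wild-type cells was small and moved with the library left out. With edgeR's quasi-likelihood test and Benjamini-Hochberg adjustment over all 17457 tested genes (threshold 0.05), 5 of the 64 tested members fell and 2 rose. That is 7.81% falling and 3.12% rising, against 15.7% and 16.1% of all tested genes, 31.8% in all, so in this fit single members were called at a smaller share than the background. This fit took the libraries as unpaired. Fits with replicate blocks, given in the closing section, called more members lower. The members that fell were the H1 genes Hist1h1a, Hist1h1c and Hist1h1e and the H2A genes Hist1h2ac and Hist1h2ap, and those that rose were Hist1h2ao and Hist4h4. The median log2 fold change of the members was -0.37 against 0.02 for all tested genes. Of the 64 estimates 51 were below 0, against 8369 of all 17457. In 33 members every stimulated library was below every unstimulated one and in 4 every one was above, where 24.1% and 24.9% of all genes were so separated. By type, edgeR called 3 of 5 H1 genes lower, 2 of 17 H2A lower and 1 higher, and 1 of 13 H4 higher. It called 0 of 18 H2B and 0 of 11 H3 genes. For H2B, 2 lower and 1 higher had an unadjusted p under 0.05 and DESeq2 called 1 lower, and for H3 these numbers were 2 and 2, all lower. Of all 17457 tested genes, 7348 had an unadjusted p under 0.05 by edgeR. The count of 5 was 15 without stimulated Mirc11-/- replicate 1, 12 without replicate 2 of that group, 9 without unstimulated Mirc11-/- replicate 1, 8 without stimulated wild-type replicate 3, 2 without stimulated wild-type replicate 1 or 2, and 3 without any 1 of the unstimulated wild-type libraries. By DESeq2 it was 11. Shares of all genes called under these other fits are not given here.

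More members passed in Mirc11-/- cells. There, 29 of 64 fell and 2 rose, which is 45.3% and 3.12% against 22.1% and 23.5% of all tested genes (45.6% in either direction), so the share of falling members was above the background and that of rising members below it. The falling members were 4 of 5 H1, 10 of 17 H2A, 7 of 18 H2B and 8 of 11 H3 genes. For H4, edgeR called 0 of 13 lower (3 at an unadjusted p under 0.05, and DESeq2 called 2), and 1, Hist4h4, higher. Of all 17457 tested genes, 9204 had an unadjusted p under 0.05 by edgeR. The median log2 fold change was -0.68 against 0.03 for all genes, with type medians of -0.91 for H1, -0.92 for H2A, -0.64 for H2B, -0.95 for H3 and -0.30 for H4. The corresponding wild-type medians were -0.67, -0.50, -0.37, -0.55 and -0.07. In 21 members the stimulated Mirc11-/- libraries were all below the unstimulated ones, against 26.2% of all genes, and in 2 all above, against 27.9%. The count of 29 was 18 without stimulated Mirc11-/- replicate 1, 47 without replicate 2, 17 without unstimulated Mirc11-/- replicate 2 or 3, and 20 without stimulated replicate 3. By type, leaving out 1 library gave 3 to 5 falling H1, 5 to 13 H2A, 2 to 12 H2B and 5 to 10 H3 genes. For the fits with a library left out, no share of all genes is given. H4 remained at 0 members lower without stimulated replicate 1, and the median of the members was then -0.43.

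**Figure D2:**
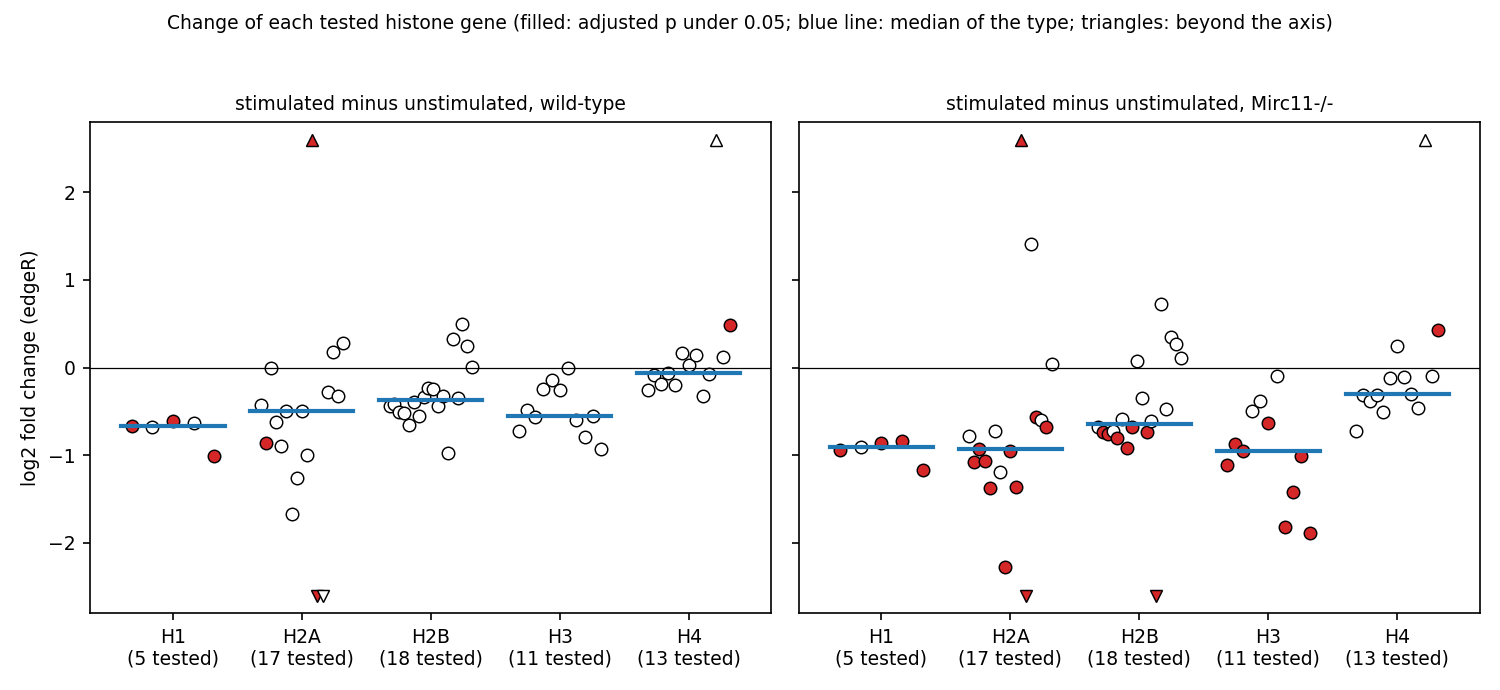
Log2 fold change (vertical axis) of each tested member after stimulation in wild-type (left) and Mirc11-/- cells (right), by histone type. Filled points passed an adjusted p of 0.05, blue lines are type medians (-0.07 and -0.30 for H4), and triangles mark the genes beyond the axis, among them Hist1h2ao and Hist1h2ap.

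Linker histone genes held 3 of the 5 falling members in wild-type cells. Hist1h1e (ENSMUSG00000051627, chromosome 13, 23620629 to 23622558) had 317, 323 and 337 CPM in unstimulated and 152, 147 and 185 CPM in stimulated wild-type cells, and 275, 414 and 403 against 106, 212 and 167 CPM in Mirc11-/- cells. No stimulated library reached an unstimulated one in either genotype. Its log2 fold change was -1.01 ± 0.216 (SE; edgeR adjusted p = 0.0039) in wild-type and -1.17 ± 0.217 (adjusted p = 0.00102) in Mirc11-/- cells. Hist1h1c (ENSMUSG00000036181, chromosome 13, 23738808 to 23740367), another linker histone gene expressed in most somatic cells, had 367, 418 and 344 CPM unstimulated and 233, 249 and 258 CPM stimulated in wild-type cells. In Mirc11-/- cells its levels were 325, 411 and 435 CPM, then 144, 274 and 228 CPM. It too separated without overlap, with changes of -0.61 ± 0.188 (adjusted p = 0.0255) and -0.86 ± 0.189 (adjusted p = 0.00265).

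Hist1h1a, a linker histone gene of proliferating lymphoid and other cells, fell by 0.67 log2 in wild-type cells (edgeR adjusted p = 0.029) and by 0.94 in Mirc11-/- cells (adjusted p = 0.00346), with no overlap of libraries in either. Hist1h1d had estimates of -0.63 (adjusted p = 0.0719) and -0.83 (adjusted p = 0.0174), so that it passed in Mirc11-/- cells only, and Hist1h1b had -0.68 and -0.91 without passing in either (adjusted p = 0.164 and 0.0553). All 5 tested H1 genes thus had negative estimates in both genotypes, and all 5 had under 50% of their 31-base words in other genes (3.53% in Hist1h1d and 34.7% in Hist1h1e), which makes them less exposed to shared reads than most members. Hist1h1e overlaps the H2B gene Hist1h2be on the same strand and shares 24.5% of its words with it. Their reads could be divided across types, which the sums by type do not remove.

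The H2A genes Hist1h2ap and Hist1h2ao need to be read as a pair, because the levels assigned to them changed places. Both encode the same H2A type and 93.8% of the 31-base words of Hist1h2ao occur in Hist1h2ap, so most of their reads cannot be told apart. Hist1h2ap (ENSMUSG00000094777, chromosome 13, 21833026 to 21833507) had 193, 167 and 181 CPM in unstimulated and 1.54, 5.81 and 6.2 CPM in stimulated wild-type cells, and 180, 248 and 262 against 1.85, 6.00 and 4.44 CPM in Mirc11-/- cells. It fell by 5.33 log2 (edgeR adjusted p = 5.21e-05) and by 5.81 (adjusted p = 2.26e-05). Hist1h2ao (ENSMUSG00000094248, chromosome 13, 21810465 to 21810944) had 0 counts in all 3 unstimulated wild-type libraries and 105, 102 and 123 CPM in stimulated ones, at least 817-fold higher by a floor of 3 counts per library (edgeR adjusted p = 0.000471). In Mirc11-/- cells it rose by 5.99 ± 0.737 log2 (adjusted p = 0.000793), from 1.32, 3.59 and 0 CPM to 71.4, 144 and 90.1 CPM. As a share of the counts of the pair, Hist1h2ao held 0.0% to 1.43% in the 6 unstimulated libraries and 94.6% to 98.6% in the 6 stimulated ones.

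The stretch around the stem-loop is printed for both copies because the models differ after it. Over the 433 bases before the stem-loop that both models cover, a script found 0 mismatches, and the Hist1h2ap model starts 30 bases earlier. The Hist1h2ap model stops 3 bases after the stem-loop and that of Hist1h2ao 31 bases after it. The shorter model is printed to its last base and the longer for 30 bases from the same point, short of its end, 5′ to 3′ from GENCODE vM21, with the stem-loop in capitals.
Hist1h2ap: aaaaaaGGCTCTTTTCAGAGCCatc
Hist1h2ao: aaaaaaGGCTCTTTTCAGAGCCatccacag
Hist1h4m: actaaaGGCCCTTTTCAGGGCCatc
Hist1h4n: actaaaGGCCCTTTTCAGGGCCatccaatt
The H4 pair Hist1h4m and Hist1h4n has the same layout, with 1 mismatch over 383 bases before the stem-loop and models that stop 3 and 31 bases after it. Hist1h4n (ENSMUSG00000069305, chromosome 13, 21831767 to 21832196), the longer of the pair, had 3.69, 0 and 5.69 CPM in unstimulated and 48.2, 2.75 and 10.4 CPM in stimulated wild-type cells. It had 1.05, 3.03 and 2.23 against 7.65, 15.6 and 33.6 CPM in Mirc11-/- cells. The groups overlapped in wild-type cells and did not in Mirc11-/- cells, and neither change passed the test (edgeR adjusted p = 0.129 and 0.0789). Hist1h4m held 59.8% to 100% of the pair's counts in every library. Whether reads past the stem-loop set these shares was not tested.

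**Figure D3:**
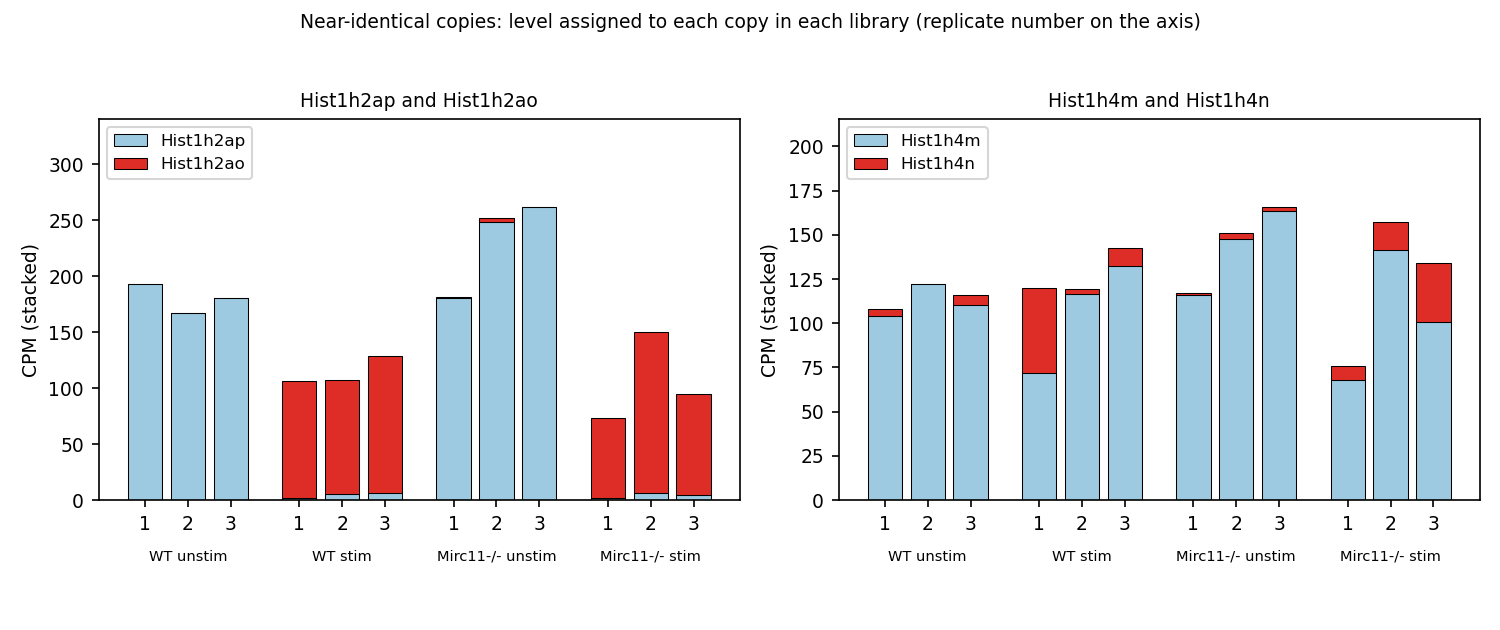
CPM of the near-identical copies Hist1h2ap and Hist1h2ao (left) and Hist1h4m and Hist1h4n (right), stacked, in each of the 12 libraries (horizontal axis: replicate within group). Unstimulated libraries of the first pair were assigned almost wholly to Hist1h2ap and stimulated ones to Hist1h2ao, while the sum fell from 180 to 114 CPM in wild-type cells.

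Summing the copies before the fit removes that division. This alternative, chosen after the data were seen, joined the 4 pairs that share over 90% of their 31-base words, namely Hist1h2ao with Hist1h2ap, Hist2h2aa1 with Hist2h2aa2, Hist1h2bq with Hist1h2br, and Hist1h4m with Hist1h4n. Hist1h2ao plus Hist1h2ap had 193, 167 and 181 CPM in unstimulated and 107, 107 and 129 CPM in stimulated wild-type cells, and 182, 252 and 262 against 73.3, 150 and 94.6 CPM in Mirc11-/- cells. The stimulated sums were below the unstimulated ones in both genotypes. The pair fell by 0.66 ± 0.221 log2 (SE; edgeR adjusted p = 0.0394) in wild-type and by 1.13 ± 0.223 (adjusted p = 0.00166) in Mirc11-/- cells, so the rise of Hist1h2ao given above turned into a fall. Hist2h2aa1 plus Hist2h2aa2 had changes of -0.28 (adjusted p = 0.362) and -0.55 (adjusted p = 0.058), where Hist2h2aa2 alone had passed in Mirc11-/- cells at -0.56 (adjusted p = 0.0496). The low-level pair Hist1h2bq plus Hist1h2br changed by -0.17 (adjusted p = 0.673) and -0.42 (adjusted p = 0.236), where Hist1h2bq alone had been called at -3.43 in Mirc11-/- cells (adjusted p = 0.000732). Hist1h4m plus Hist1h4n had 0.14 (adjusted p = 0.653) and -0.24 (adjusted p = 0.391). With the copies summed, 5 features fell and 1 rose in wild-type and 27 fell and 1 rose in Mirc11-/- cells, out of 60. The share of all genes called in that fit is not given here. In all, 40 of the 65 members had at least 50% of their 31-base words in other genes, so their single values are uncertain. The same holds for the near-absent counts of Hist2h3c1 (100%), Hist1h2aj (93.5%) and Hist1h2al (81.9%), which were below the count minimum.

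Among the other H2A genes, Hist1h2ac (chromosome 13, 23681467 to 23683948), with 16.8% of its words shared, had 40.6, 47.9 and 52.4 CPM in unstimulated and 22.9, 22.9 and 31.6 CPM in stimulated wild-type cells. In Mirc11-/- cells it had 41.9, 80.7 and 59.4 against 24.0, 39.2 and 23.3 CPM. It separated without overlap in both genotypes and fell by 0.86 ± 0.260 log2 (edgeR adjusted p = 0.0277) and by 1.07 ± 0.261 (adjusted p = 0.00681). Hist1h2ab, with -0.43 and -0.78, passed in neither (adjusted p = 0.416 and 0.113). Hist3h2a, on chromosome 11, had small positive estimates of 0.29 and 0.04 that did not pass (adjusted p = 0.23 and 0.862).

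No H2B gene passed in wild-type cells by edgeR, although 5 fell and 1 rose there without stimulated Mirc11-/- replicate 1. The 7 of 18 that fell in Mirc11-/- cells are a count that was 2 without unstimulated Mirc11-/- replicate 3, 3 without replicate 2 of that group and 12 without stimulated Mirc11-/- replicate 2. Again, no share of all genes is given for the fits with a library left out. Hist1h2bc (ENSMUSG00000018102, chromosome 13, 23684199 to 23692908) had 68.3, 81.8 and 63.9 CPM in unstimulated and 53.7, 59.1 and 47.1 CPM in stimulated wild-type cells, and 53.1, 64.3 and 67.3 against 26.4, 46.5 and 38.5 CPM in Mirc11-/- cells. Its stimulated libraries lay below the unstimulated ones in both genotypes, and it passed in Mirc11-/- cells only, with changes of -0.42 ± 0.174 (edgeR adjusted p = 0.0859) and -0.73 ± 0.177 (adjusted p = 0.00515). Hist1h2bg, the H2B gene with the highest CPM, had -0.66 (adjusted p = 0.0637) and -0.80 (adjusted p = 0.021). Hist1h2bb and Hist1h2bf had negative estimates in both genotypes that did not pass, between -0.44 and -0.72. Hist2h2be, which is among the clustered genes known to make polyadenylated mRNA, was low at 2.73 to 5.48 CPM and had positive estimates of 0.50 (adjusted p = 0.0587) and 0.35 (adjusted p = 0.148).

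The H3 genes had estimates below 0 in both genotypes, and 8 of 11 passed in Mirc11-/- cells. Hist1h3i (chromosome 13, 21782960 to 21783370) had 65.4, 64.5 and 77.2 CPM in unstimulated and 27.6, 39.0 and 53.1 CPM in stimulated wild-type cells, and 60.9, 102 and 99.1 against 22.8, 44.1 and 31 CPM in Mirc11-/- cells. No libraries of the compared groups overlapped, and the changes were -0.79 ± 0.291 (edgeR adjusted p = 0.063) and -1.42 ± 0.297 (adjusted p = 0.00324). Hist1h3h had -0.60 (adjusted p = 0.271) and -1.82 (adjusted p = 0.00511). Hist1h3i shares 93.2% and Hist1h3h 94.2% of its words with other genes, so their reads may be divided among several H3 copies. Hist1h3b and Hist1h3f fell in Mirc11-/- cells by 0.87 (adjusted p = 0.0328) and 0.63 (adjusted p = 0.0405), while Hist1h3e, the H3 gene with the highest CPM, had -0.14 and -0.38 (adjusted p = 0.644 and 0.154).

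H4 had the type medians nearest 0. Hist1h4d (chromosome 13, 23581598 to 23582735) had 209, 195 and 202 CPM in unstimulated and 194, 178 and 208 CPM in stimulated wild-type cells, and 200, 260 and 265 against 128, 247 and 207 CPM in Mirc11-/- cells. The groups overlapped in both genotypes and the changes were -0.07 ± 0.187 (edgeR adjusted p = 0.822) and -0.32 ± 0.187 (adjusted p = 0.188). Hist1h4c had -0.19 and -0.38, and Hist1h4h 0.17 and -0.12, without passing in either genotype. Hist4h4, the single member of the fourth cluster, had 19.8, 18.0 and 18.6 CPM in unstimulated and 29.6, 23.6 and 25.9 CPM in stimulated wild-type cells. In Mirc11-/- cells it had 20.1, 26.9 and 26.3 against 26.4, 37.4 and 34.7 CPM, so that 1 stimulated library fell within the unstimulated range. It rose by 0.49 ± 0.140 log2 (adjusted p = 0.0174) and by 0.43 ± 0.140 (adjusted p = 0.0236).

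The members were also set apart by an annotated feature of their ends. In 16 of the 65 members an annotated transcript carries AATAAA or ATTAAA, the usual polyadenylation signals, on the sense strand within its last 40 bases, against 48.7% of all protein-coding transcripts of the release. They comprise 2 H1, 2 H2A, 6 H2B and 6 H4 genes and no H3 gene. The median log2 fold change of the 15 tested among them was 0.12 in wild-type and -0.11 in Mirc11-/- cells, whereas the 49 members without the signal had medians of -0.43 and -0.72. Of the 15, 1 rose and 1 fell in wild-type and 1 rose and 4 fell in Mirc11-/- cells, and of the 49, 1 rose and 4 fell and then 1 rose and 25 fell. In percent, 6.67% of the 15 and 8.16% of the 49 fell in wild-type cells, where 15.7% of all genes did. The shares falling in Mirc11-/- cells were 26.7% and 51.0%, where 22.1% of all genes fell, so the share among the 15 was near the background. Hist4h4 and Hist2h2be carry the signal, and so does Hist1h1c, which fell in both genotypes. The calls of Hist1h2bq, with the signal, and of Hist1h2ao and Hist2h2aa2, without it, did not hold once near-identical copies were summed. The grouping was made after values had been seen and no test was applied to it. It overlaps with histone type, since 6 of 13 H4 genes and 0 of 11 H3 genes have the signal. Some of the 49, such as Hist1h4k and Hist1h2bn, also have no stem-loop in their models. For these the missing signal says only that its letters are not in the annotated end. The 15 and the 49 may thus differ in how completely their ends are annotated.

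**Figure D4:**
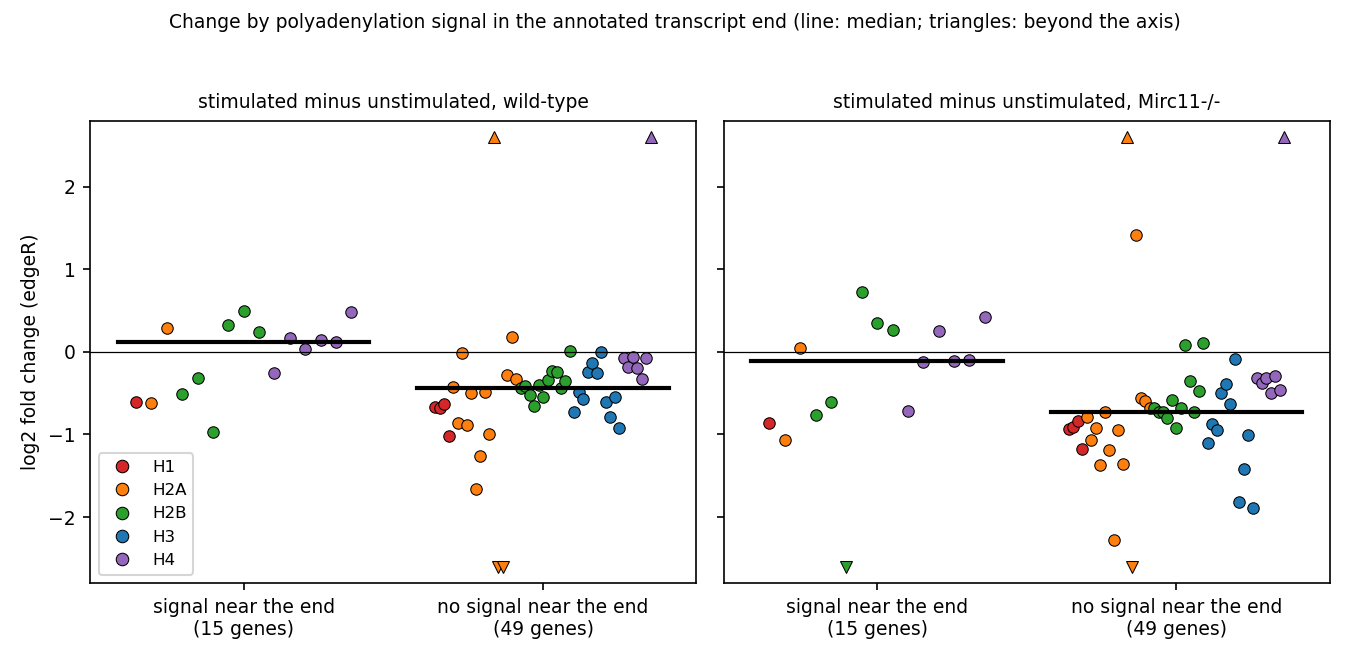
Log2 fold change after stimulation (vertical axis) of the 15 tested members with a polyadenylation signal near the annotated end and the 49 without, in wild-type (left) and Mirc11-/- cells (right). Colours give the histone type, black lines the medians (0.12 and -0.43 in wild-type cells), and triangles the genes beyond the axis.

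Promoter motifs are given by type. RefSeq (GRCm38.p6) gave the 250 bases before and 50 bases after the start of 58 members. CCAAT, on either strand, occurred in all 6 H1, 16 H2A, 15 H2B and 9 H3 promoters found, but in 3 of 12 H4 promoters, where 37.9% of all 27025 promoters hold it. The octamer ATTTGCAT, a binding site of POU-domain factors, occurred in 6 of 16 H2A and 5 of 15 H2B promoters and in 0 of the other types, against 1.75% of all promoters. The H2A and H2B counts are not independent, because both strands were searched and some windows overlap. The windows of Hist1h2ae and Hist1h2bg, and those of Hist1h2ah and Hist1h2bk, overlap around the same octamer, which is thus counted for both types. TATAAA was found in 44.4% of H3 to 66.7% of H1 and H4 promoters, against 14.2% of all. As an example of the octamer in its setting, the windows of the abundant H2B genes Hist1h2bb and Hist1h2bg are shown 5′ to 3′, with the octamer in capitals. They begin their octamers 90 and 59 bases before the start site.
Hist1h2bb: ttgagtctcttATTTGCATaaagcctttga
Hist1h2bg: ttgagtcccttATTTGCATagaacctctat
Such matches describe these windows and were not related to the changes by a test.

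Of 28 listed genes of S-phase DNA synthesis, 26 fell in wild-type and 27 in Mirc11-/- cells, and the others did not pass. Of all tested genes, 15.7% fell and 16.1% rose in wild-type and 22.1% fell and 23.5% rose in Mirc11-/- cells, which is the background for the lists that follow. The S-phase list median was -0.82 and -0.99 log2. Mcm3, a subunit of the replicative helicase, had 71.7, 65.5 and 79.3 CPM in unstimulated and 27.8, 29.1 and 31.5 CPM in stimulated wild-type cells, and 78.4, 90.6 and 89.5 against 25.3, 31.8 and 32.1 CPM in Mirc11-/- cells. Cdc6, which loads that helicase, fell by 1.57 log2 (edgeR adjusted p = 3.57e-06) and 1.85 (adjusted p = 6.16e-07). The summed level of the list was 1291 ± 104 and 738 ± 48.3 CPM in wild-type cells, 1.75-fold lower, and 1531 ± 189 and 772 ± 85.6 CPM in Mirc11-/- cells, 1.98-fold lower, beside 1.34-fold and 1.63-fold for the histone sum. Whether the part of cells in S phase changed was not tested.

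The machinery that makes and processes histone mRNA was listed apart. Of its 19 listed genes, with medians of -0.18 and -0.28, 9 fell and 2 rose in wild-type and 12 fell and 2 rose in Mirc11-/- cells. Falling genes were thus at a larger share than the background given above. Rising genes were at a smaller one, by a count of only 2 in each genotype. Slbp, the stem-loop-binding protein, had 60.3, 60.9 and 66.9 CPM in unstimulated and 47.5, 50.9 and 53.1 CPM in stimulated wild-type cells, and it fell by 0.31 ± 0.0905 log2 (edgeR adjusted p = 0.0179) there and by 0.40 ± 0.0907 (adjusted p = 0.00298) in Mirc11-/- cells. Npat had -0.09 (adjusted p = 0.363) in wild-type cells and fell by 0.22 (adjusted p = 0.0156) in Mirc11-/- cells. Eri1, an exonuclease that acts on the histone stem-loop, fell by 0.68 and 0.96 (adjusted p = 5.84e-05 and 2.27e-06), and Cstf2, a cleavage factor, by 0.38 and 0.69 (adjusted p = 0.00236 and 1.52e-05). Ccne1, the cyclin that with Cdk2 activates Npat, fell by 1.06 and 0.83 (adjusted p = 2.24e-05 and 0.0001). Zfp473, a zinc-finger protein of the processing complex, rose by 0.54 (adjusted p = 0.0263) and 1.36 (adjusted p = 3.91e-05). Its level in stimulated cells was higher in Mirc11-/- than in wild-type by 0.77 (adjusted p = 0.0153).

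Histone genes outside the clusters, some of which make polyadenylated mRNA through the cell cycle, had medians of -0.09 and -0.33. Of 11 listed, 10 were tested, and 2 rose and the rest did not pass in wild-type cells, while 1 rose and 5 fell in Mirc11-/- cells. The replacement histones H3f3a and H2afz had changes of 0.18 and 0.18 in wild-type and -0.08 and -0.06 in Mirc11-/- cells, none past the threshold. H3f3b, the other gene of the same replacement H3, had -0.10 (adjusted p = 0.572) and fell by 0.39 (adjusted p = 0.0209) in Mirc11-/- cells. H2afx, whose protein marks DNA breaks and whose gene makes both kinds of mRNA, had -0.46 (adjusted p = 0.157) and fell by 0.91 (adjusted p = 0.00879). Cenpa, the centromeric H3, rose by 0.58 (adjusted p = 0.00364) and 1.02 (adjusted p = 3.69e-05). Of 19 histone chaperones, 10 fell in wild-type and 12 in Mirc11-/- cells, and the others did not pass. Ssrp1, a subunit of the FACT chaperone, fell by 0.87 and 1.19, and Chaf1b, a subunit of the assembly factor CAF-1, by 1.02 and 1.16.

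Noncoding RNAs without a poly(A) tail were listed as well, because they too should be reduced by poly(A) selection. Of 16 listed, 14 were tested, and 3 rose in wild-type and 2 in Mirc11-/- cells while the rest did not pass. These shares are near or below those of all genes given above. The list medians were 0.26 and 0.16. The summed level of Rn7s1, Rn7s2, Rn7sk, Rpph1 and Rmrp ranged from 77179 to 110724 CPM in unstimulated and from 106749 to 128127 CPM in stimulated wild-type libraries, and from 81364 to 102800 against 79349 to 114709 CPM in Mirc11-/- ones. These groups overlapped in both genotypes. Rn7s1 and Rn7s2 had equal counts in every library, so their reads cannot be told apart. The part of these RNAs in the histone levels was not tested.

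The vomeronasal receptor genes moved with stimulation in the opposite direction. Their summed level over 548 genes was 14.2, 13.6 and 17.4 CPM in unstimulated and 41.5, 26.1 and 24.8 CPM in stimulated wild-type cells, and 14.6, 17.0 and 15.9 against 85.4, 49.1 and 59.1 CPM in Mirc11-/- cells. The stimulated libraries were all above the unstimulated ones in both genotypes, and replicate 1 was the highest of each stimulated group. With the log2 level of these genes as a covariate, edgeR called 1 member lower and 2 higher in wild-type cells and none in Mirc11-/- cells, and the median change of the members turned to 0.22 and 0.46. The share of all genes called with the covariate is not given here. Since the vomeronasal level of stimulated and unstimulated libraries did not overlap, the parts of this level and of stimulation in the histone change cannot be told apart.

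**Figure D5:**
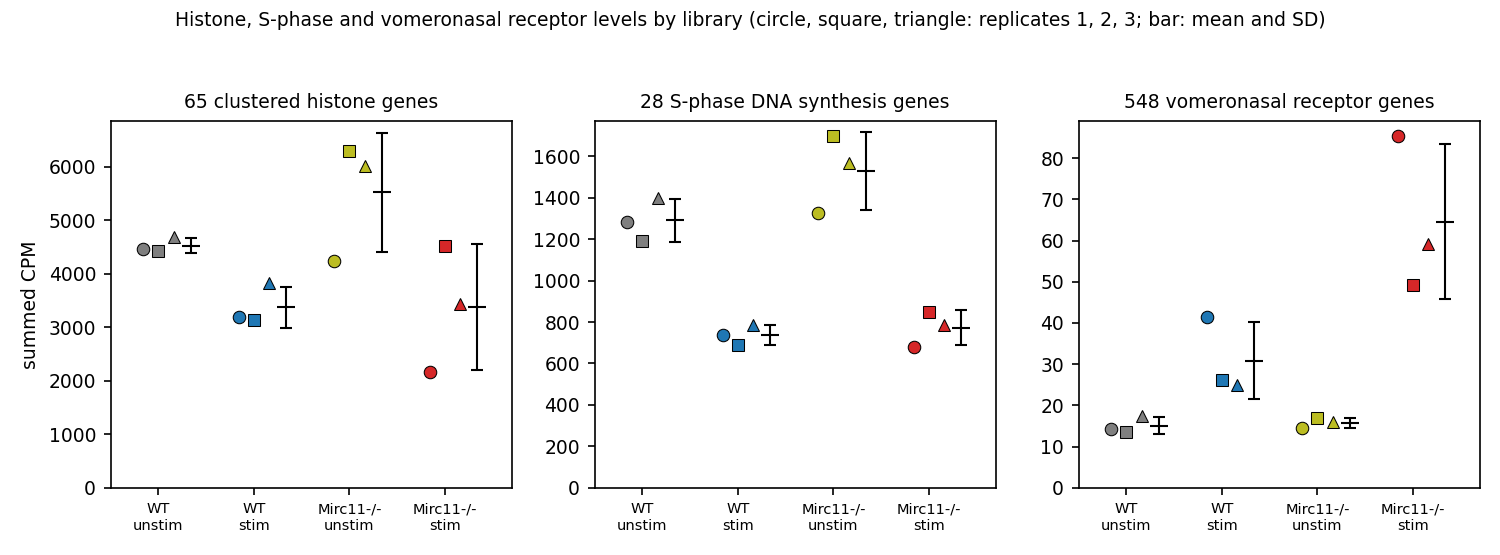
Summed CPM (vertical axes, from 0) of the 65 clustered histone genes, the 28 S-phase DNA synthesis genes and the 548 vomeronasal receptor genes in the 12 libraries, by group. Circles, squares and triangles are replicates 1, 2 and 3 and bars the mean and SD of 3 libraries; stimulated Mirc11-/- replicate 1 had the lowest histone sum, 2170 CPM, and the highest vomeronasal sum, 85.4 CPM.

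Between genotypes, no member passed. In unstimulated cells edgeR called 0 of 64 members, against 1.11% of all tested genes (0.309% higher and 0.796% lower), and DESeq2 called 1 higher. By edgeR 3 members had an unadjusted p under 0.05, against 1607 of all 17457 tested genes. Estimates were above 0, meaning higher in Mirc11-/- cells, for 61 of the 64, and 3 were below 0, against 8367 of all 17457. Members that share reads do not give independent estimates. The median of the members was 0.34 against 0.01 for all genes (0.21 without unstimulated Mirc11-/- replicate 2 and 0.49 without replicate 1). In 5 members all Mirc11-/- libraries were above all wild-type ones and in 0 below, where 8.87% and 8.91% of all genes were so separated. The summed level was 1.22 times that of wild-type cells, but unstimulated Mirc11-/- replicate 1, at 4237 CPM, was below all 3 wild-type libraries and replicates 2 and 3 were above them. In the genotype comparison the smallest adjusted p of a member was 0.352.

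In stimulated cells edgeR again called 0 members, against 9.02% of all tested genes (3.89% higher and 5.13% lower), and DESeq2 called 2 lower. By edgeR 3 members had an unadjusted p under 0.05, against 5257 of all 17457 tested genes. The median of the members was 0.03, and 26 of their 64 estimates were below 0, against 8302 of all 17457. The summed levels of 3374 and 3375 CPM in wild-type and Mirc11-/- cells differed by far less than their spread. These values rest on single libraries: without stimulated Mirc11-/- replicate 1 the Mirc11-/- sum was 3978 CPM and the median of the members 0.26, and without replicate 2 the median was -0.24. The smallest adjusted p was that of Hist1h2bc, at -0.52 (adjusted p = 0.0778). In 2 members all Mirc11-/- libraries were below all wild-type ones and in 0 above, against 16.8% and 15.8% of all genes.

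The stimulation response of the members was not shown to differ between genotypes. The interaction, which is the Mirc11-/- response minus the wild-type response, was past the threshold for 0 of 64 members by edgeR and by DESeq2. By edgeR, 0.0115% of all tested genes passed. At an unadjusted p under 0.05 by edgeR were 3 members, against 1858 of all 17457 tested genes. The smallest adjusted p of a member was 0.445. Estimates were below 0, meaning a larger fall in Mirc11-/- cells, for 55 of the 64 members, against 9151 of all 17457 tested genes. The median of the members was -0.26 against -0.02 for all genes. The median was -0.032 without stimulated Mirc11-/- replicate 1 and -0.55 without replicate 2, so its distance from that of all genes rests on single libraries. It was also -0.42 without unstimulated Mirc11-/- replicate 1 and -0.17 without replicate 2 of that group. The larger count of falling members in Mirc11-/- cells is therefore not a tested difference.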

How the data were processed

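RNA sequencing of 12 libraries was analysed from 1 table of gene counts. Its values are RSEM expected counts that the authors deposited as whole numbers, with RSEM 1.3.0, Bowtie2 2.2.8, Trim Galore 0.4.1, bcl2fastq and the GRCm38 build named per the submitters' processing notes. The role and order of these tools, the annotation release and the strand setting are not given in the sources used here. Low genes were removed with filterByExpr and TMM factors were computed. The main test was edgeR 4.0.16 (limma 3.58.1, R 4.3.3), quasi-likelihood with robust options and 1 mean per group over all 12 libraries, two-sided, with Benjamini-Hochberg adjustment across the 17457 genes tested. The script was tested on simulated data. DESeq2 1.42.0, other scalings and filters, replicate blocks, a covariate and leaving out each library were the alternatives. The p values measure the spread between these libraries, and the floor of 3 counts covers counting error only.

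Sequences and gene models came from GENCODE vM21 and promoters from RefSeq, read with Python 3.11.15. Copies were called near-identical when over 90% of the 31-base words of one lay in the other. Members were given in full by this rule: in each histone type, the 3 tested members with the highest mean CPM and up to 2 more with the smallest adjusted p in any of 5 contrasts. From the other lists, up to 4 genes with the smallest adjusted p were eligible, with Slbp, Npat, H3f3a, H3f3b, H2afz and H2afx. Further names were chosen after their values were seen. The members, the 11 gene lists and the rules were chosen with earlier results of these data known.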

Additional observations from a re-analysis of the deposited data

How the results depend on the processing

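Counts of called members depended on the fit, and with the vomeronasal covariate the direction of many single members turned as well. In wild-type cells the 5 members called lower were 9 with library size only, 2 with no filter, 11 by the DESeq2 Wald test, 1 with the vomeronasal covariate, and 2 to 15 on leaving out 1 library. The 2 called higher were 1 with near-identical copies summed and 1 to 3 on leaving out 1 library. In Mirc11-/- cells the 29 called lower were 18 with no filter, 0 with the vomeronasal covariate and 17 to 47 on leaving out 1 library. The 2 called higher there were 1 with no filter, 0 with the covariate, 1 with copies summed and 1 to 3 on leaving out 1 library. Between genotypes, DESeq2 called 1 member higher in unstimulated cells, and in stimulated cells 1 was lower with no filter, 2 by DESeq2, 1 with a replicate block and 0 to 1 on leaving out 1 library. All these alternative counts are given without the share of all genes called in the same fit.

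Samples of the same number did not deviate together throughout: the correlations of the 6 same-numbered pairs within a genotype ran from -0.065 to 0.226, so the numbers were not taken to pair the samples. As a hint from the data, 9 of the 12 libraries correlated best with their own number within genotype, all 6 wild-type ones among them. With a replicate block over all groups, 12 members were lower in wild-type and 35 in Mirc11-/- cells, and with a replicate block within genotype 28 and 46 were. The shares of all genes called in the blocked fits are not given here, so these counts are not set against a background.

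With the vomeronasal covariate the log2 change in wild-type cells turned positive for Hist2h2aa2 (0.32), Hist1h2ab (0.34), Hist1h2bb (0.055), Hist1h2bc (0.026), Hist1h3e (0.44), Hist1h3f (0.35), Hist1h3h (0.48), Hist1h4d (0.39) and Hist1h4c (0.34). In Mirc11-/- cells it turned positive for Hist1h1c (0.27), Hist2h2aa2 (0.57), Hist1h2ab (0.72), Hist1h2bg (0.26), Hist1h2bb (0.23), Hist1h2bf (0.055), Hist1h2bc (0.11), Hist1h3e (0.71), Hist1h3f (0.52), Hist1h3i (0.073), Hist1h3h (0.56), Hist1h4d (0.54), Hist1h4c (0.62) and Hist1h4h (0.99). Summing copies, chosen after seeing the data, turned Hist1h2ao to -0.66 and -1.13, since its counts were then those of the pair, and leaving out stimulated Mirc11-/- replicate 1 turned Hist1h4h to 0.12 in Mirc11-/- cells, within -0.38 to 0.12 over the libraries left out. The cause of the other changes was not tested. Over the single members given in full and all alternatives, 860 values kept their direction and their side of the threshold, 49 came to pass it, 69 no longer passed and 26 turned direction.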
